A study of Rattus norvegicus with 14 samples.

Results

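The macrophage genes described here are Siglec1, Cd163, Cd14, Lyz2, Csf1r, Mrc1, Adgre1, Cd68, Ptprc and C1qa, taken by symbol from the annotation of the array, 10 of 18166 genes with a single symbol. Each had 1 transcript cluster, so no choice between clusters was needed. Their levels come from whole epididymides of Sprague-Dawley rats, pooled before extraction into 14 samples, each on its own RatGene 2.0 ST array. The postnatal ages were day 7 (3 pools), day 18 (4 pools), day 28 (4 pools) and day 60 (3 pools). The labels name no treatment of the rats, and the younger ones (days 7 and 18) were kept with their lactating mothers. The labels do not say how many animals made up a pool, or whether the pools of an age share litters, so p-values measure only the spread between pools, which may be technical. The epididymis is the long duct in which sperm leaving the testis mature and are stored.

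Macrophages are phagocytes that are seeded in organs before birth and later also replaced from blood monocytes. In the mouse and rat epididymis they lie around and within the duct epithelium, where they take up dying cells and debris and meet germ cell antigens that first appear at puberty. Their survival depends on the receptor encoded by Csf1r, and their surface scavenger and lectin receptors differ with tissue and maturity.

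All values are log2 signals, so a difference of 1 is 2-fold. All 10 genes lay above a background level of 4.92 on every array, which is the 95th percentile of 1344 olfactory and vomeronasal receptor genes. Of the 26 other macrophage genes measured, Vsig4 and Cd5l lay below it on every array. The epithelial genes that mark the tissue were high at day 60, for example Lcn5 at 13.47 ± 0.039 and Crisp1 at 11.65 ± 0.082 (mean ± SD, 3 pools). At day 7 Lcn5 averaged 6.69 ± 0.49, while Crisp1, Adam7 and Defb1 averaged 4.56 ± 0.25, 4.53 ± 0.31 and 4.83 ± 0.17, under the background level. Array medians ran from 5.21 to 5.42, and no 2 arrays were identical. On the third principal component the score of replicate 2 of day 28 was 25.2, against 14.2 to 15.9 in its fellow pools. That component held 6.07% of the variance.

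**Figure D1:**
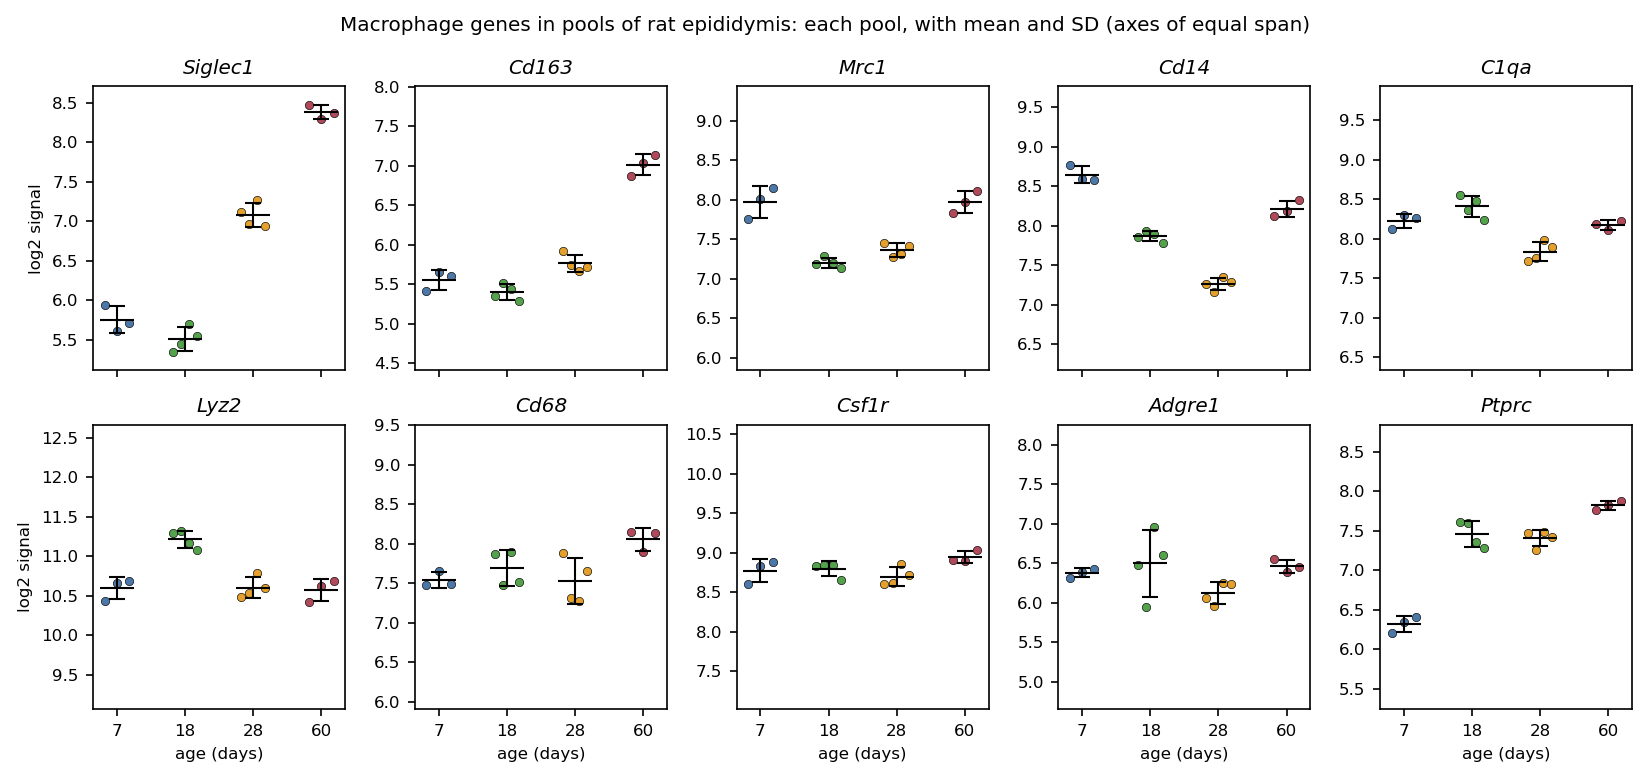
Log2 signal (y axis) of the 10 macrophage genes against age in days (x axis). Points are pools, and the long bar with whiskers is the mean ± SD of an age (3 or 4 pools). The y axes all have the same span but start at different levels. Siglec1 and Cd163 are at their lowest at days 7 and 18 and highest at day 60, Cd14 and Mrc1 dip in between, and Csf1r stays between 8.61 and 9.04.

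With age as the only factor, 8 of the 10 genes differed between ages in the joint test, where 60.4% of all genes did. Siglec1 (adjusted p = 5.36e-11), Cd163 (8.38e-09), Cd14 (1.04e-08) and Ptprc (4.77e-08) had the lowest adjusted p. Csf1r (adjusted p = 0.148) and Adgre1 (0.174) did not pass, and Cd68 passed at 0.0271. As the background for every count below, 17.4% of all genes rose and 20.7% fell at day 18 against day 7, 10.5% and 14.3% at day 28 against day 18, 13.8% and 11.2% at day 60 against day 28, and 21.7% and 27.6% at day 60 against day 7.

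Of the scavenger and lectin receptors, Siglec1 and Cd163 had the widest spans between age means of the 10 genes (2.87 and 1.62), while Mrc1 spanned 0.77, less than Ptprc or Cd14 (1.38 for Cd14). Siglec1 encodes sialoadhesin, a lectin of resident macrophages that binds sialic acids on other cells. Its signal was 5.94, 5.61 and 5.71 in the day 7 pools and 5.35, 5.44, 5.69 and 5.55 in the day 18 pools. It was 7.12, 6.97, 7.27 and 6.94 in the day 28 pools and 8.47, 8.29 and 8.36 in the day 60 pools. Every day 28 pool lay above every pool of days 7 and 18, and every day 60 pool lay above all others. Siglec1 rose by 1.57 ± 0.10 at day 28 over day 18 (log2 difference ± SE), 2.96-fold (adjusted p = 4.52e-08). It rose again by 1.30 ± 0.11 at day 60 over day 28, 2.47-fold (adjusted p = 1.44e-06). Day 60 stood 6.16-fold above day 7 (adjusted p = 1.05e-10). Day 18 was 0.25 ± 0.11 below day 7, which did not pass the test (adjusted p = 0.0928). That small difference passed when the less bright part of the genes was left out (adjusted p = 0.0441) and without replicate 3 of day 18 (0.0468).

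Cd163 encodes the scavenger receptor for haemoglobin bound to haptoglobin, which in the rat is the antigen of the antibody ED2 against resident tissue macrophages. Its day 7 pools were at 5.41, 5.66 and 5.60 and its day 18 pools at 5.35, 5.52, 5.44 and 5.29. Its day 28 pools were at 5.92, 5.75, 5.67 and 5.72, and its day 60 pools at 6.88, 7.03 and 7.14. The day 60 pools lay far above the rest, whose 3 ages together spanned only 5.29 to 5.92. Cd163 rose by 0.37 ± 0.087 at day 28 over day 18 (adjusted p = 0.00665) and by 1.25 ± 0.094 at day 60 over day 28, 2.38-fold (adjusted p = 4.84e-07). Day 18 was 0.16 ± 0.094 below day 7, with overlapping pools (adjusted p = 0.213). Day 28 was 0.21 ± 0.094 above day 7, and every day 28 pool lay above every day 7 pool, but the difference did not pass after adjustment (adjusted p = 0.0847). Day 60 was 2.75-fold above day 7 (adjusted p = 1.24e-08).

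The sequence ahead of Cd163 is given because this gene had the second largest rise of the 10 genes at day 60 over day 28. It is the part of the RefSeq promoter window upstream of the annotated gene, chr4:158770524-158770750 on the plus strand of GRCr8, 5′ to 3′. RefSeq windows were found for 9 of the 10 genes, all except Siglec1, and run from 250 bases before to 50 bases after the listed start. They were searched on both strands for GAGGAA, the core of sites of the myeloid factor PU.1, for its longer form GAGGAAGT, and for TTNNGNAAT, a form of C/EBP sites. GAGGAAGT contains GAGGAA, so their matches overlap. The core was in 7 of the 9 windows and in 27.6% of all 33469 windows. The longer form was in 0 of the 9 and in 2.42% of all. The C/EBP form was in those of Cd14, Lyz2 and Csf1r, 3 of the 9, and in 12.3% of all. Windows of Cd163 and C1qa held none of these letters on either strand. Matches are printed in capitals, and Cd163 has none.
Cd163: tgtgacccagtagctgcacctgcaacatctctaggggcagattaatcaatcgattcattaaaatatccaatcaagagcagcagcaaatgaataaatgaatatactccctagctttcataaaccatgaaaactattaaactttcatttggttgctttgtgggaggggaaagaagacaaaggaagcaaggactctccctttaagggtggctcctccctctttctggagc

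Mrc1 encodes the mannose receptor, an endocytic lectin of tissue macrophages that lymphatic endothelium also makes. Its signal was 7.76, 8.01 and 8.15 at day 7 and 7.19, 7.29, 7.20 and 7.13 at day 18. It was 7.45, 7.28, 7.31 and 7.42 at day 28 and 7.84, 7.97 and 8.11 at day 60. Pools of days 7 and 60 overlapped and lay above all pools of days 18 and 28. Mrc1 fell by 0.77 ± 0.098 at day 18 against day 7 (adjusted p = 1.77e-05) and rose by 0.61 ± 0.098 at day 60 over day 28 (adjusted p = 0.000423). Day 28 was 0.16 ± 0.091 above day 18, which did not pass (adjusted p = 0.221). Over the whole span the difference was within 0.01 of 0, with an SE of 0.10 (adjusted p = 0.998).

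Among the 5 markers of lymphatic endothelium measured, Lyve1 had the same calls as Mrc1 at these steps. It fell by 1.02 ± 0.091 at day 18 against day 7 and rose by 0.47 ± 0.091 at day 60 over day 28. Lyve1 is also made by some tissue macrophages. Of the 5, 2 rose and 2 fell at day 18 against day 7. Prox1 and Ccl21 rose by 0.42 ± 0.10 and 0.52 ± 0.11, and Flt4, the receptor for lymphatic growth factors, fell by 0.54 ± 0.13 along with Lyve1. The summed linear signal of the 5 markers was 982 to 1195 at day 18, against 1150 to 1258 at day 7, and none was below background. Their part in the level of Mrc1 was not tested. The upstream part of its promoter window (chr17:82157475-82157724, plus strand, GRCr8) holds the PU.1 core on the minus strand at 2 places, in capitals.
Mrc1: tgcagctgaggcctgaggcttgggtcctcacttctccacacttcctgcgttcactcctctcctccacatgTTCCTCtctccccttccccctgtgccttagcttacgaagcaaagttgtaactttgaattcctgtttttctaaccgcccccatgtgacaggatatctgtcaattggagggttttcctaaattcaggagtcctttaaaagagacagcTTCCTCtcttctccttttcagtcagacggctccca

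The receptor for bacterial products fell up to day 28 and was higher again at day 60. Cd14 encodes the co-receptor that passes lipopolysaccharide to the TLR4 receptor complex. Its signal was 8.77, 8.58 and 8.58 at day 7 and 7.86, 7.93, 7.89 and 7.78 at day 18. It was 7.26, 7.17, 7.35 and 7.28 at day 28 and 8.13, 8.19 and 8.32 at day 60. No 2 ages overlapped, and the order was day 7, day 60, day 18 and day 28 from high to low. Cd14 fell by 0.78 ± 0.080 at day 18 against day 7 (adjusted p = 1.95e-06) and by 0.60 ± 0.074 at day 28 against day 18 (adjusted p = 3.12e-05). It then rose 1.93-fold at day 60 over day 28 (0.95 ± 0.080, adjusted p = 1.48e-06). Day 60 still lay 0.43 ± 0.085 below day 7 (adjusted p = 0.000577).

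Of the other genes of lipopolysaccharide sensing, some passed at each neighbouring step and most did not. At day 18 over day 7, 2 of 9 measured rose, the kinase Irak4 and the adaptor Myd88, and 0 fell, or 1 without replicate 3 of day 7. At day 28 against day 18, 0 rose, or 1 without replicate 3 of day 28, and 3 fell, among them Lbp, the lipopolysaccharide-binding protein, by 0.84 ± 0.21. By day 60, 3 rose over day 28 and 0 fell. Ly96, which holds lipopolysaccharide within the TLR4 complex, rose by 1.02 ± 0.23, and Lbp rose by 0.94 ± 0.23. The median difference of the 9 genes at day 18 against day 7 was -0.13. Tlr4 itself passed at no neighbouring step and was 0.34 ± 0.098 lower at day 60 than at day 7. That call was lost without replicate 2 of day 7. Genes of fibroblasts fell with Cd14 and Mrc1 at day 18: 5 of 5 fell, with a summed linear signal of 17419 to 18361 at day 18, against 23236 to 24858 at day 7. They did not follow Cd14 at the later steps. At day 28 against day 18, when Cd14 fell, 1 of the 5 rose and 0 fell. At day 60 over day 28, when Cd14 rose, 1 of the 5 rose and 3 fell. Their part in the level of Cd14 was not tested.

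C1qa encodes a chain of C1q, the recognition protein of the classical complement pathway, which tissue macrophages make and which marks dying cells for uptake. Its signal was 8.13, 8.30 and 8.26 at day 7 and 8.55, 8.37, 8.48 and 8.24 at day 18. It was 7.72, 7.76, 7.99 and 7.89 at day 28 and 8.19, 8.11 and 8.23 at day 60. The day 28 pools lay below all the others. C1qa fell by 0.57 ± 0.086 at day 28 against day 18 (adjusted p = 0.000181) and rose by 0.34 ± 0.092 at day 60 over day 28 (adjusted p = 0.015). The rise did not pass without replicate 3 of day 60 (adjusted p = 0.0616). Day 18 against day 7 passed with quantile normalization only (0.24, adjusted p = 0.0484). The other chains gave the same calls. C1qb fell by 0.56 ± 0.071 and C1qc by 0.42 ± 0.077 at day 28 against day 18, and at day 60 over day 28 they rose by 0.42 ± 0.076 and 0.31 ± 0.083.

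Other complement genes rose with the C1q chains at the last step. Of 10 measured, 8 rose and 0 fell at day 60 over day 28, among them the central component C3 (1.15 ± 0.10) and the anaphylatoxin receptor C3ar1 (1.02 ± 0.12). At day 28 against day 18, when the C1q chains fell, 4 of 10 rose and 1 fell. C1r and C1s, the proteases that C1q carries, rose by 0.24 ± 0.066 and 0.44 ± 0.089, and the gene that fell was C3 (1.02 ± 0.093). At day 18 against day 7, 2 of 10 rose and 5 fell. C3 rose by 1.48 ± 0.10 and Cd55, which protects cells from complement, fell by 1.86 ± 0.13. Epithelium, fibroblasts and liver also make many of these proteins, so the list as a whole is not a set of macrophage markers.

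Lyz2 encodes the lysozyme of macrophages and neutrophils, which cuts bacterial cell walls. It was 10.44, 10.66 and 10.69 at day 7 and 11.30, 11.32, 11.17 and 11.09 at day 18. It was 10.48, 10.54, 10.79 and 10.60 at day 28 and 10.42, 10.63 and 10.69 at day 60. Every day 18 pool lay above every pool of the other ages, which overlapped with each other. Lyz2 rose by 0.62 ± 0.10 at day 18 over day 7 (adjusted p = 0.000181) and fell by 0.61 ± 0.094 at day 28 against day 18 (adjusted p = 0.000219). Days 7, 28 and 60 could not be ordered (adjusted p = 0.888 to 0.964). Of the 9 neutrophil markers, S100a8, S100a9, Elane, Ngp, Retnlg and Mmp8 were below background on every array. Of all 9, Mpo rose at day 18 over day 7 (0.59 ± 0.19) and 0 fell. The Mpo call was lost without replicate 1 of day 7, replicate 3 of day 18 or replicate 4 of day 18.

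Cd68 encodes macrosialin, a glycoprotein of lysosomes and endosomes in phagocytes. It was 7.48, 7.66 and 7.49 at day 7 and 7.88, 7.48, 7.90 and 7.51 at day 18. It was 7.89, 7.32, 7.27 and 7.65 at day 28 and 8.15, 7.89 and 8.14 at day 60. The pools of days 18 and 28 scattered widely (SD 0.23 and 0.29), and the lowest day 60 pool lay level with the highest day 28 pool to 2 decimals. Cd68 was 0.53 ± 0.15 higher at day 60 than at day 28 (adjusted p = 0.0193) and 0.52 ± 0.16 higher than at day 7 (adjusted p = 0.0147). The first call was lost without replicate 2 or 3 of day 28 (adjusted p = 0.0508 and 0.0563) and without replicate 1 or 3 of day 60 (0.0717 and 0.0705). The second was lost without replicate 1 or 3 of day 60 (adjusted p = 0.0516 and 0.05).

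Csf1r and Adgre1, general markers of the lineage, passed at no step. Csf1r encodes the receptor for the growth factors CSF1 and IL-34. It was 8.61, 8.83 and 8.89 at day 7 and 8.83, 8.85, 8.85 and 8.65 at day 18. It was 8.61, 8.61, 8.86 and 8.72 at day 28 and 8.91, 8.89 and 9.04 at day 60. The day 60 pools lay just above all others, by less than 0.01 at the closest. No neighbouring step passed the test. The largest was day 60 over day 28, at 0.25 ± 0.091 (adjusted p = 0.0639), and it passed with each array centred on its median (adjusted p = 0.0436), with an intensity trend (0.025), with genes under the median brightness left out (0.0268) and without replicate 3 of day 28 (0.0372). With each array centred on the median of its named genes, day 60 also passed against day 28 (adjusted p = 0.0466) and against day 7 (0.0377).

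Adgre1 encodes the adhesion receptor known in the mouse as F4/80. It was 6.32, 6.40 and 6.43 at day 7 and 6.48, 5.95, 6.96 and 6.61 at day 18. It was 6.06, 5.96, 6.25 and 6.24 at day 28 and 6.55, 6.39 and 6.45 at day 60. The day 18 pools reached both above and below those of every other age. No step passed. Without replicate 2 of day 18, day 28 was 0.56 lower than day 18 (adjusted p = 0.00301), and day 60 was called higher than day 28 (0.34, adjusted p = 0.0444). The second was also called with only the pools of those ages in the fit (adjusted p = 0.0465).

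Ptprc encodes CD45, a phosphatase on all leukocytes. It was 6.21, 6.35 and 6.41 at day 7 and 7.61, 7.60, 7.36 and 7.29 at day 18. It was 7.47, 7.26, 7.49 and 7.43 at day 28 and 7.77, 7.83 and 7.88 at day 60. All later pools lay above the day 7 pools. Ptprc rose by 1.14 ± 0.095 at day 18 over day 7, 2.20-fold (adjusted p = 2.3e-07), and by 0.41 ± 0.095 at day 60 over day 28 (adjusted p = 0.00559). Days 18 and 28 overlapped (adjusted p = 0.725). Markers of T and NK cells rose with it at day 18 over day 7, 12 of 12, where 17.4% of all genes rose. Of 6 B cell markers, 0 rose and 0 fell at that step. The summed linear signal of the T and NK cell markers was 976 to 1257 at day 18, against 597 to 628 at day 7. Among them, Klrb1 and Gzmb were below background on every array. The part of T and NK cells in the rise of Ptprc was not tested. The upstream part of its window (chr13:52259811-52259996, minus strand, GRCr8) holds the PU.1 core at 1 place, in capitals.
Ptprc: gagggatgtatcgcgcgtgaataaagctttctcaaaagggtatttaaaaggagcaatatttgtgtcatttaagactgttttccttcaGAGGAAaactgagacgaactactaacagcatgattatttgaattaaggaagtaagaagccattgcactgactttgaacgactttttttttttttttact

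Fewer of the 10 genes passed at the early steps than at the last. At day 18 against day 7, 2 rose (Lyz2 and Ptprc) and 2 fell (Cd14 and Mrc1), shares of 20% each, close to the 17.4% and 20.7% of all genes. At day 28 against day 18, 2 rose (Siglec1 and Cd163) and 3 fell (Cd14, Lyz2 and C1qa), where 10.5% of all genes rose and 14.3% fell. At day 60 against day 28, 7 rose and 0 fell, where 13.8% of all genes rose and 11.2% fell. The 3 that did not pass were Lyz2, Csf1r and Adgre1. Over the whole span from day 7, 4 were higher at day 60 (Siglec1, Cd163, Cd68 and Ptprc) and Cd14 was lower, where 21.7% of all genes were higher and 27.6% lower. Neighbouring steps share the pools of the age between them.

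The values of the 2 ages did not overlap for 4, 5, 9 and 6 of the 10 genes at these 4 comparisons, where they did not for 45.1%, 26.5%, 31.4% and 57.8% of all genes. The median of the 10 log2 differences at day 60 against day 28 was 0.47, and over all genes it was -0.02. At the other comparisons it was 0.07, -0.13 and 0.13 in the same order, beside 0.01, -0.02 and -0.03 over all genes. The ages that are not neighbours were compared only to order the levels, and 48% of all genes differed at day 28 against day 7 and 41.1% at day 60 against day 18. Centring each array on its median moved the split of all calls: 1339 genes rose and 2890 fell at day 28 against day 18, in place of 1899 and 2592, and 2793 rose and 1104 fell at day 60 against day 28, in place of 2511 and 2039. Under that centring the calls on the 10 genes were the same except for the rise of Csf1r given above. In RNA of a whole organ, fewer macrophages and less RNA of a gene per macrophage cannot be told apart.

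**Figure D2:**
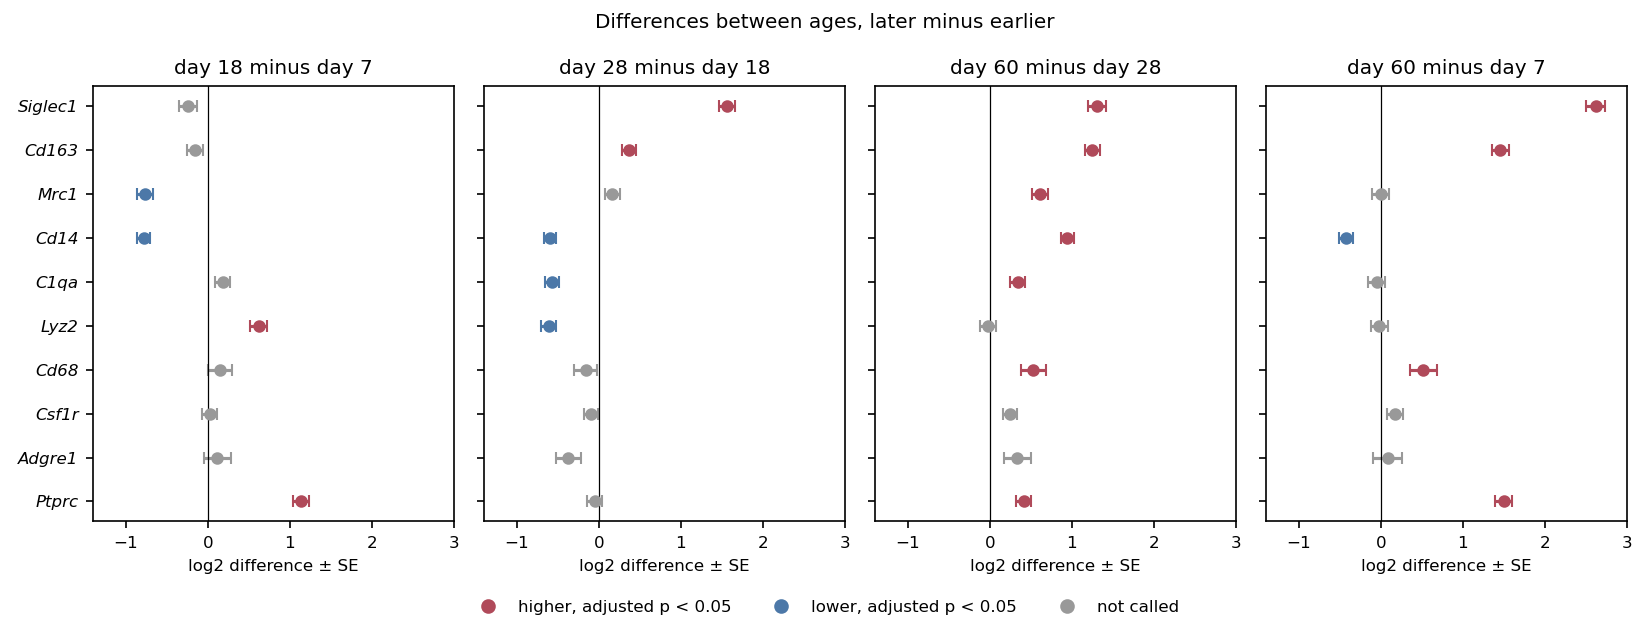
Log2 difference between ages, later minus earlier (x axis), for the 10 macrophage genes (rows) in 4 comparisons (panels). Points are estimates of the fit and whiskers their SE, and colour marks the call at an adjusted p under 0.05. At day 60 minus day 28, 7 genes are called higher and 0 lower.

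Csf1r offered a scale within each array on which the other 9 genes could be read, and the difference of their change from that of Csf1r was tested. At day 28 over day 18 Siglec1 gained 1.66 ± 0.13 on Csf1r (adjusted p = 2.96e-08) and Cd163 0.46 ± 0.11 (adjusted p = 0.00628), while Cd14, Lyz2 and C1qa lost ground. At day 60 over day 28 Siglec1 gained 1.06 ± 0.14, Cd163 1.005 ± 0.12, Cd14 0.70 ± 0.12 and Mrc1 0.36 ± 0.11. Cd68, Ptprc and C1qa, which rose at that step in their own right, did not differ from Csf1r by this test (adjusted p = 0.175, 0.216 and 0.458). Lyz2 lost 0.27 ± 0.10 (adjusted p = 0.0419), a call that was lost without 9 of the 14 pools in turn, namely replicate 2 of day 7, replicates 1 and 2 of day 18, every replicate of day 28, and replicates 1 and 3 of day 60.

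At day 18 over day 7 Ptprc and Lyz2 gained 1.12 ± 0.11 and 0.60 ± 0.10 on Csf1r, and Cd14 and Mrc1 lost 0.80 ± 0.12 and 0.79 ± 0.11. Over the whole span Siglec1 gained 2.45 ± 0.15, Ptprc 1.33 ± 0.11 and Cd163 1.29 ± 0.13, and Cd14 lost 0.60 ± 0.12. The 5 others did not pass. Of all genes, 12.7% gained on Csf1r and 17.4% lost at day 18 over day 7, 10.9% and 5.25% at day 28 over day 18, 4.67% and 33% at day 60 over day 28, and 14.2% and 33.5% at day 60 over day 7.

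**Figure D3:**
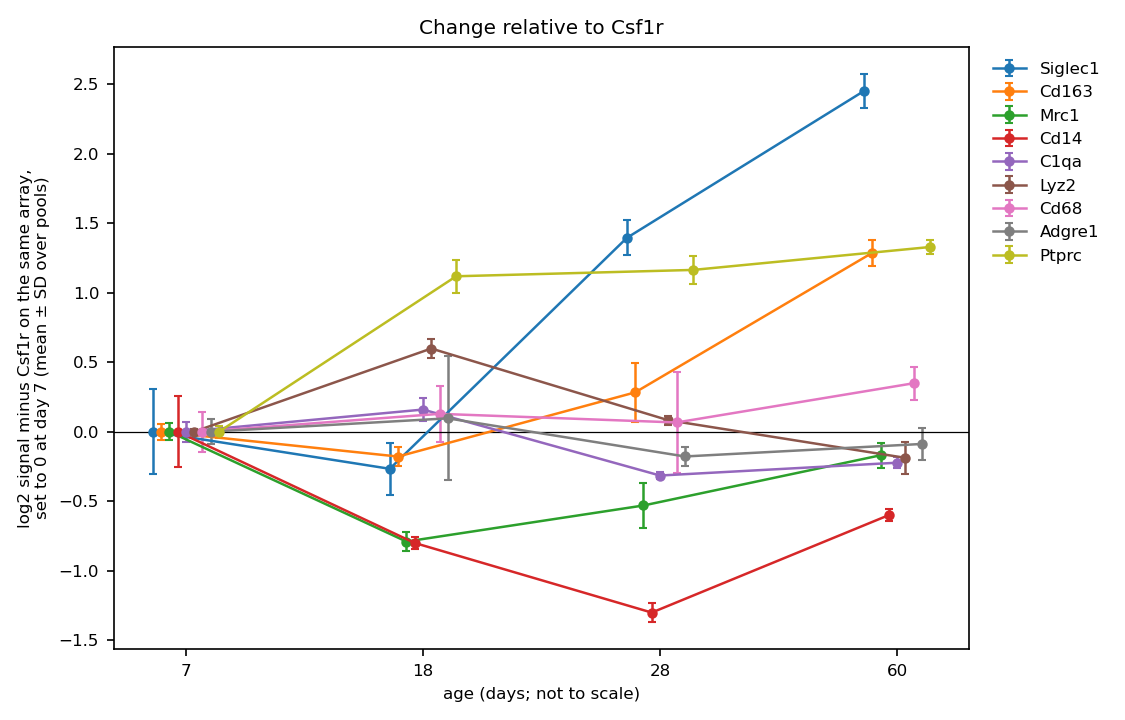
Log2 signal minus that of Csf1r on the same array, set to 0 at day 7 (y axis), against age in days (x axis, not to scale), for 9 macrophage genes. Points are means over 3 or 4 pools and whiskers SDs. Siglec1 ends 2.45 above its day 7 position and Cd14 0.60 below, while Ptprc makes most of its gain by day 18.

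At no step did all members of the wider set of macrophage genes pass. At day 18 against day 7, 6 of 26 rose and 3 fell (23.1% and 11.5%), where 17.4% of all genes rose and 20.7% fell. Ctss, a lysosomal protease of antigen-presenting cells, rose by 1.03 ± 0.11, Clec7a, a receptor for fungal glucans, rose by 0.89 ± 0.12, and Folr2, a folate receptor of resident macrophages, fell by 0.56 ± 0.099. The count of falls was 1 without replicate 2 of day 7 and 5 without replicate 1 of day 28. At day 28 against day 18, 0 rose and 8 fell (30.8%, where 14.3% of all genes fell), among them Fcer1g, a signalling chain of Fc receptors, by 0.60 ± 0.077. Without replicate 2 of day 28 the falls were 5.

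Of the 26 genes, 12 rose and 1 fell at day 60 over day 28. Gpnmb, a glycoprotein of phagocytes that digest debris, rose by 1.84 ± 0.10, Folr2 by 0.95 ± 0.099 and Fcer1g by 0.93 ± 0.084. The gene that fell was the scavenger receptor Marco, by 0.52 ± 0.14, a call lost without replicate 2 of day 60. The median difference of the 26 genes was 0.30 at this step, and 46.2% rose, where 13.8% of all genes did. At day 60 over day 7, 10 were higher and 2 lower (38.5% and 7.69%, where all genes gave 21.7% and 27.6%). Ctss was higher by 1.77 ± 0.11, and Cx3cr1, the fractalkine receptor, and Msr1, a scavenger receptor, were lower by 0.46 ± 0.13 and 0.36 ± 0.12. The count of lower genes was 1 without replicate 3 of day 7, replicate 1 of day 60 or replicate 2 of day 60.

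Transcription factors of myeloid cells were called in both directions at the first step. At day 18 against day 7, 4 of 10 rose and 2 fell, with Ikzf1, which lymphocytes share, at 1.10 ± 0.11 and Irf8 at 0.91 ± 0.090. Maf fell by 0.62 ± 0.079 and Tfec by 0.57 ± 0.21. There was 1 fall in place of 2 without any of 9 pools in turn: replicates 1 and 3 of day 7, 1, 3 and 4 of day 18, 1 and 3 of day 28, and 2 and 3 of day 60. At day 28 against day 18, 0 rose and 3 fell, and 5 fell without replicate 4 of day 28. At day 60 over day 28, 4 rose and 0 fell, among them Spi1, the gene of PU.1, at 0.44 ± 0.13. Without replicate 1 of day 60 the rises were 2.

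Genes of macrophage growth and recruitment included both ligands of the Csf1r receptor. Csf1 averaged 8.59 ± 0.11, 7.93 ± 0.10, 7.84 ± 0.063 and 8.12 ± 0.071 at days 7, 18, 28 and 60 (mean ± SD). It fell by 0.66 ± 0.081 at day 18 against day 7 and rose by 0.28 ± 0.081 at day 60 over day 28. The other ligand, Il34, rose by 0.41 ± 0.10 at day 60 over day 28. Cx3cl1, the ligand of Cx3cr1, fell by 1.45 ± 0.10 at day 28 against day 18 and rose by 0.45 ± 0.11 at day 60 over day 28. The chemokine gene Ccl2 fell by 1.08 ± 0.27 at day 18 against day 7, and its receptor Ccr2, which marks monocytes, rose by 0.90 ± 0.19 at day 60 over day 28. At that last step 5 of 7 rose, and 3 without replicate 1 of day 60.

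Of the genes of haem and iron handling, the pathway that Cd163 feeds, 2 of 12 rose and 6 fell at day 18 against day 7. Hmox1, haem oxygenase, fell by 1.10 ± 0.17, and the iron exporter Slc40a1 was also among the genes that fell. At day 28 over day 18, when Cd163 rose, 1 of the 12 rose and 1 fell, Slc40a1 by 0.33 ± 0.085. When Cd163 rose again at day 60 over day 28, 4 of the 12 rose and 0 fell. These were the ferritin light chain Ftl1 (0.91 ± 0.081), the biliverdin reductase Blvrb (0.67 ± 0.12), Slc11a1, an iron transporter of phagosomes (0.65 ± 0.12), and Slc40a1 (0.45 ± 0.092). Over the whole span from day 7, when Cd163 was higher, 2 of the 12 were higher and 2 lower at day 60. The lower genes were Hmox1 (0.61 ± 0.19) and Slc40a1 (0.54 ± 0.098), and 1 was lower without replicate 3 of day 7. Hp, the gene of haptoglobin, averaged under background at all 4 ages and passed at no step.

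**Figure D4:**
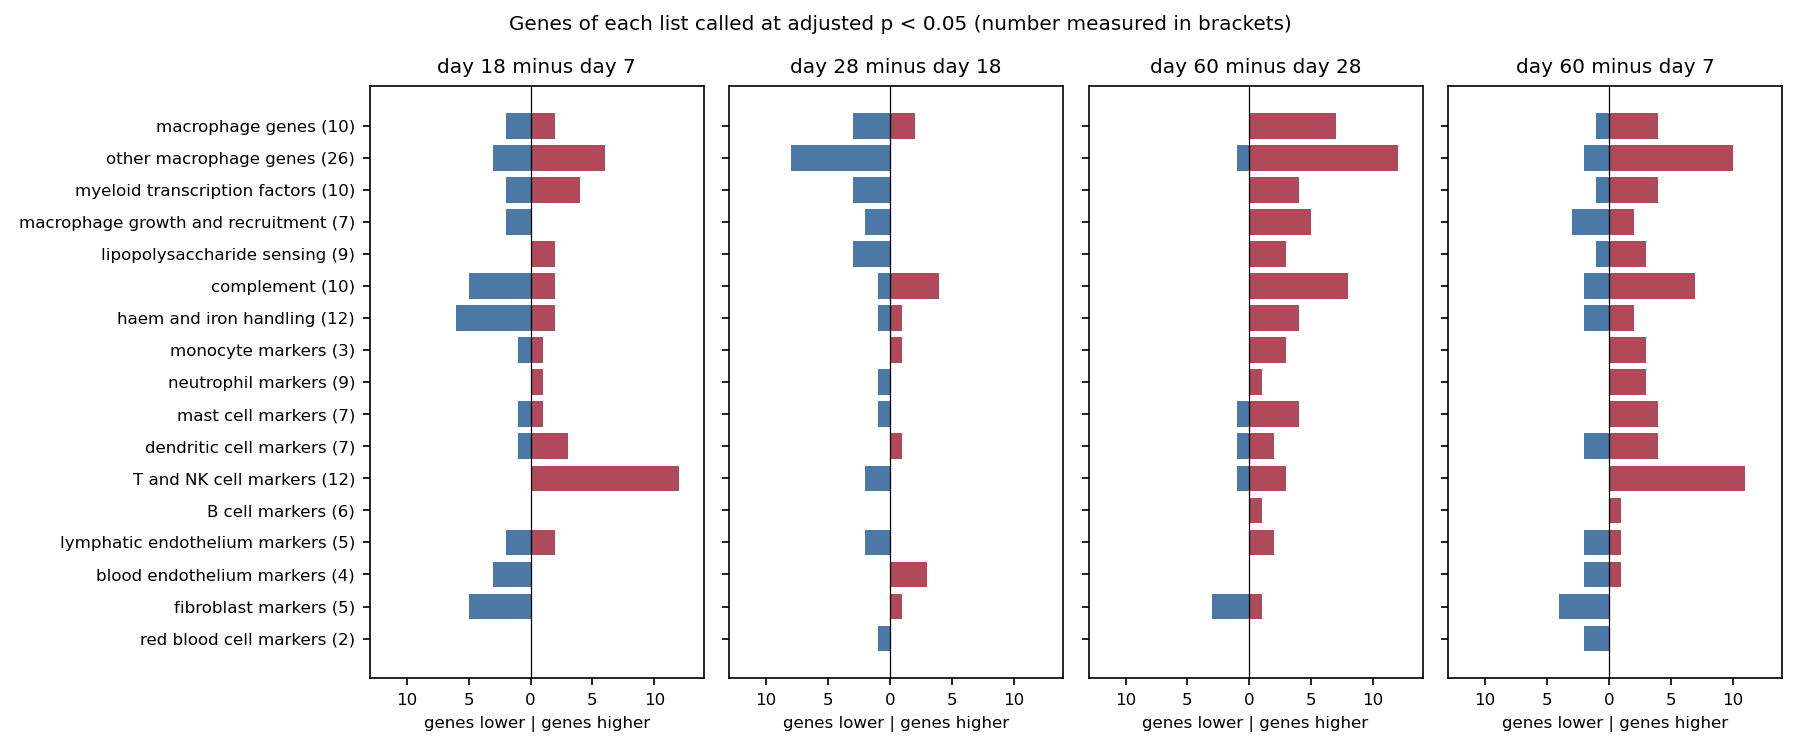
Number of genes called higher (right of 0) and lower (left of 0) at an adjusted p under 0.05 (x axis) in each gene list (rows, with the number measured in brackets) for 4 comparisons (panels). At day 60 minus day 28, 12 of 26 other macrophage genes and 8 of 10 complement genes are called higher, and at day 18 minus day 7 all 12 markers of T and NK cells are.

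The genes whose course over the 14 pools was nearest to that of a macrophage gene were found from the root mean square distance between values centred on each gene's mean, for the 4 members whose ages spanned at least 1. For Siglec1 they were Gramd2a (distance 0.26), Lrp2 (0.28) and Ggh (0.29). For Cd163 they were the chemokine gene Ccl24 (0.14), Aig1 (0.16) and Abca5 (0.16). Cd14 was followed by Cblb (0.15), Shmt1 (0.17) and Paqr6 (0.17). Ptprc was followed by Edn3 (0.099), Mboat1 (0.11) and Plac8 (0.11). None of the other 9 members was among the 3 nearest of any of them. Cd163 was at a distance of 0.62 from Siglec1, and Mrc1 at 0.35 from Cd14.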

How the data were processed

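RNA of 14 pools of epididymides from 4 ages was hybridised to arrays. The deposited values are log2 signals per transcript cluster, made by the authors with RMA, and the submitters' processing notes also name the Transcriptome Analysis Console. Versions, settings and genome build are not given in the sources used here. The table holds 36685 clusters, of which 18511 have 1 symbol in the array annotation. The cluster with the highest mean was taken for each of 18166 genes, with no filter on low signal. Arrays have no read depth, so precision depends on how many pools there are.

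Using limma 3.58.1 (lmFit, eBayes; R 4.3.3), age was fitted as 1 factor in a single model for the whole table. The moderated test is two-sided, its p-values carry a Benjamini-Hochberg adjustment across 18166 genes, and calls are at 0.05. A second fit used values minus Csf1r on the same array. The scripts were tested on simulated data. The members and lists were chosen with earlier results of these data known. In all, 134 of 153 listed genes in 16 lists were measured, and named genes are the members, the 2 largest called rises and falls of a list at a comparison, and the 3 genes nearest to a member. C1qc, C1r, Spi1, Slc11a1 and Hp fall outside that rule. So do C1qb, Fcer1g, Csf1, Il34, Slc40a1 and Ms4a2 at 1 comparison each or more. All of these were chosen after their values were seen. The gene listed as Cd59 was matched to Cd59b. Sequences are from RefSeq (GRCr8).

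Replicate numbers did not pair the pools: deviations of same-numbered pools of different ages correlated at -0.14 to 0.05 in 19 pairs. Alternatives were 2 other scalings and another centring chosen after seeing the data, a level filter, another variance model, only the 2 ages compared, a replicate block, array weights, other choices of clusters, a minimum fold of 1.5, other genes in place of Csf1r, and leaving out each pool.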

Additional observations from a re-analysis of the deposited data

Results flagged for a closer look

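Csf1r in the day 18 pools was the single value set out by a check for 1 pool far from the others of its age, made for the 10 genes in the 2 ages with 4 pools. Replicate 4 had 8.65, and the other pools had 8.83, 8.85 and 8.85. The gap was 0.916 of the whole range, above Dixon's critical value for 4 samples. Chance sets out about 1 in 20 such groups, and 20 were checked. Without that pool the calls on Csf1r at the neighbouring steps were the same.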

How the results depend on the processing

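Of 992 recomputed differences of the 10 genes, 966 kept their side of the threshold, 14 were no longer called and 12 were newly called. Among differences called in either fit, 0 turned round. Some that were not called changed sign. For example, Mrc1 at day 60 against day 7 ran from -0.11 to 0.089 with each pool left out in turn. The calls at a minimum fold of 1.5 at day 28 over day 18 left 1 gene higher (Siglec1), at day 60 over day 28 left 4, and at day 60 against day 7 left 0 lower, where fewer genes can pass by construction. Over all genes that minimum left 1338 higher and 1643 lower at day 18 against day 7, 691 and 545 at day 28 against day 18, 892 and 457 at day 60 against day 28, and 2357 and 2678 at day 60 against day 7. With genes under the median brightness left out, 1 member was higher at day 28 over day 18, because Cd163 was not tested. With each array centred on its median, 1104 genes were lower at day 60 against day 28, and the cause was not tested.

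With the C1q chains in place of Csf1r, 5 members gained and 0 lost at day 28 over day 18. With Ptprc in its place 0 gained and 8 lost at day 18 over day 7, and 1 gained and 6 lost over the whole span, spans over which Ptprc itself rose. Leaving out 1 pool gave these ranges of members called higher and lower: 2 to 2 and 2 to 3 at day 18 against day 7, 2 to 2 and 3 to 4 at day 28 against day 18, 5 to 8 and 0 to 0 at day 60 against day 28, and 3 to 4 and 1 to 1 over the whole span. Relative to Csf1r the ranges were 2 to 2 and 2 to 2, 2 to 3 and 3 to 4, 3 to 5 and 0 to 1, and 3 to 3 and 1 to 1. In the joint test they were 7 to 9. Over all genes they were 2595 to 3386 higher and 3255 to 3981 lower at day 18 against day 7, 1617 to 1938 and 2022 to 2587 at day 28 against day 18, 1943 to 2466 and 1488 to 2255 at day 60 against day 28, and 3587 to 4091 and 4531 to 5213 over the whole span. With the replicate number as a block the members called were 2 and 2, 2 and 3, 7 and 0, and 4 and 1, and it changed no call on them; in 3 of 14 pools the best match among other ages had the same number. Of 3200 recomputed list counts, 252 moved, either by more than 1.5 times or to or from 0.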

Other observations

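Of the 7 dendritic cell markers, 4 were higher and 2 lower at day 60 than at day 7. Clec9a and Xcr1, receptors of the dendritic cells that present antigen to cytotoxic T cells, were higher by 1.21 ± 0.11 and 1.18 ± 0.12, and the transcription factor genes Zbtb46 and Batf3 were lower by 0.86 ± 0.15 and 0.75 ± 0.17. Cpa3, the carboxypeptidase of mast cell granules, averaged 6.91 ± 0.16, 5.54 ± 0.29, 5.74 ± 0.23 and 7.61 ± 0.28 at days 7, 18, 28 and 60 (mean ± SD). It fell by 1.37 ± 0.17 at day 18 against day 7 and rose by 1.87 ± 0.17 at day 60 over day 28. Kit, a receptor of mast cells and other cells, went the other way: it rose by 1.36 ± 0.099 at day 18 over day 7 and fell by 0.39 ± 0.099 at day 60 against day 28. Of the 7 mast cell markers, 1 rose and 1 fell at day 18 against day 7, with 2 falls without replicate 1 of day 7, and 4 rose and 1 fell at day 60 against day 28. Tpsb2, a mast cell tryptase, rose by 1.11 ± 0.18 at the last step. Mcpt1, Ms4a2 and Hdc were below background on every array, yet Ms4a2 was among the 4 that rose (0.80 ± 0.17).

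Of the 3 monocyte markers measured, 3 rose at day 60 over day 28. F13a1, a coagulation factor subunit that some macrophages also make, rose by 0.73 ± 0.078. Of the 6 B cell markers, Jchain was higher at day 60 than at day 28 by 0.66 ± 0.17 and 0 fell, and that call was lost without replicate 3 of day 60. Jchain averaged under background at every age. Of the 4 blood endothelium markers, 3 fell at day 18 against day 7 and 3 rose at day 28 over day 18. Of the 2 red blood cell markers, Slc4a1 fell by 0.68 ± 0.11 at day 28 against day 18.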
